A study of Mus musculus with 4 samples.

Results

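The genes described here encode inducible defence products of the intestinal epithelium other than the granule proteins of Paneth cells. The 10 genes were taken from a list by name: the lectins Reg3b, Reg3g and Reg1, the goblet cell cytokine-like protein Retnlb, the siderophore binder Lcn2, the antibody transporter Pigr, the oxidases Duox2 and Nox1, the oxidase partner Duoxa2, and the nitric oxide synthase Nos2. All 10 were among the 30284 genes over which transcript counts were summed, and 8 of them were among the 13602 genes expressed enough to be tested. Retnlb and Lcn2 were not.

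RNA came from small-intestinal organoids, epithelial cultures seeded in Matrigel as crypts of 2 male C57BL/6J mice, labelled as 9 weeks old under a tag that refers to the start of a DSS experiment. Cultures of each mouse were given 2 µM GW3965 or the vehicle DMSO for 6 h, so that each treatment had 2 libraries and each mouse had 1 library per treatment. GW3965 activates the liver X receptors (LXR), which sense oxidised sterols in the nucleus, and the question was how epithelial transcripts respond. No microbe, cytokine or other inducer of defence genes is named in the labels, and how long the crypts had grown before GW3965 was added is not stated. The extraction text speaks of colon, while the tissue label names small-intestinal organoids.

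The treatment registered in all 4 libraries, since the LXR target genes Abca1, Abcg1 and Srebf1 had log2 fold changes of 5.54 ± 0.43, 4.35 ± 0.25 and 2.53 ± 0.24 (standard error; adjusted p = 0.00134, 0.000157 and 0.00525, edgeR's quasi-likelihood test). Total estimated counts were 16572359 to 19486547 per library. The GW3965 library of mouse 1 stood apart, with 14.01% of its gene counts from the mitochondrial genome, against 7.6 to 9.43% in the others. Values of Reg3b, Reg3g and Nos2 without this library stand beside their differences between the mice. All 7 markers that define the epithelium were expressed, summing to 31540 and 22250 normalised CPM (read counts relative to library size, after TMM scaling) in the GW3965 libraries of mouse 2 and mouse 1, against 30170 and 29710 in the DMSO libraries.

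The gut epithelium kills or starves microbes at its surface with secreted lectins and metal-binding proteins, carries antibodies into the lumen, and makes hydrogen peroxide, superoxide and nitric oxide. Most of these genes are switched on by signals from microbes and immune cells. Interleukin-22 acts through STAT3, and microbial ligands and interleukin-17 act largely through NF-kB. In stimulated mouse macrophages LXR agonists are known to hold down the induction of Nos2 and other inflammatory genes, whereas the cultures here were not stimulated.

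Sequences around the RefSeq transcription starts (250 bases before to 50 after, build GRCm38.p6) were found for 8 of the 10 genes. Those of Reg3b, Reg3g and Reg1 are shown because these lectin genes lie in 1 cluster on chromosome 6 and differed in how far they varied between the mice. Each is written 5′ to 3′ on the strand of the gene, and capitals mark runs of at least 12 bases that Reg3b and Reg3g share. The windows are chr6:78370635-78370934 on the plus strand for Reg3b, chr6:78468825-78469124 on the minus strand for Reg3g and chr6:78425733-78426032 on the plus strand for Reg1.
Reg3b: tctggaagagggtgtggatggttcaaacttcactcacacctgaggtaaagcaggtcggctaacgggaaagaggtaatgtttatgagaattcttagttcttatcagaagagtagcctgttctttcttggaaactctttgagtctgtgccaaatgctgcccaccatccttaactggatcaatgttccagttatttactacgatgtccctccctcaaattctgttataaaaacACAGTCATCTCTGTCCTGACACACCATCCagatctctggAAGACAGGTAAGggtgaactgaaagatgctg
Reg3g: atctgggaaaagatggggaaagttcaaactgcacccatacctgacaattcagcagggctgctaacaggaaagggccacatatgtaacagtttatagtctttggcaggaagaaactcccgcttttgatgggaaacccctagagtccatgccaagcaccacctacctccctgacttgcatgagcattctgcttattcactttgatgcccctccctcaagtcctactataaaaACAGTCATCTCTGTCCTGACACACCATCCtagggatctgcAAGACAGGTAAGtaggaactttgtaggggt
Reg1: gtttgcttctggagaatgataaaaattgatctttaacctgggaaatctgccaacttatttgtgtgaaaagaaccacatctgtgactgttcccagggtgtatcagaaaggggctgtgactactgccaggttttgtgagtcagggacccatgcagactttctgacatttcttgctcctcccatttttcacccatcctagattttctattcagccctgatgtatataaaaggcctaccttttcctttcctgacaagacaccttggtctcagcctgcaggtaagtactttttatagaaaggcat

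The longest shared run of Reg3b and Reg3g has 29 bases, starts at position -20 in both (counted from the transcription start at 1) and runs across that start. Reg1 had 0 such runs with either. Over the whole window Reg3b and Reg3g were 69% identical in a global alignment, whereas Reg1 was 52.6% identical to Reg3b and 53.6% to Reg3g. The letters TATAAA began at -29 in Reg3b, -27 in Reg3g and -30 in Reg1. On the other strand they were also at -161 in Reg3g and at 36 in Reg1. Counted anywhere in the window and on either strand, they occur in 13.62% of the 32851 RefSeq windows and in 4 of the 8 found here. That count is looser than a match at 1 position.

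The Duox2 and Duoxa2 windows are shown because the genes are read in opposite directions from neighbouring starts, 673 bases apart in RefSeq (451 bases between the gene ends in GENCODE M21), and encode an enzyme and the partner it needs. The windows are chr2:122298178-122298477 on the minus strand for Duox2 and chr2:122298650-122298949 on the plus strand for Duoxa2, and capitals mark TATAAA, which begins at -30 in Duoxa2 and is not in the Duox2 window.
Duox2: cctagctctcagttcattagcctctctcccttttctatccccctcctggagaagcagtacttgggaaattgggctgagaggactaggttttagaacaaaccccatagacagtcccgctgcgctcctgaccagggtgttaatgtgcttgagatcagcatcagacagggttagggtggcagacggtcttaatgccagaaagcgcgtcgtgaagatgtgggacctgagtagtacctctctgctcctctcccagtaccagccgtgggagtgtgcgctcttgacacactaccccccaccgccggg
Duoxa2: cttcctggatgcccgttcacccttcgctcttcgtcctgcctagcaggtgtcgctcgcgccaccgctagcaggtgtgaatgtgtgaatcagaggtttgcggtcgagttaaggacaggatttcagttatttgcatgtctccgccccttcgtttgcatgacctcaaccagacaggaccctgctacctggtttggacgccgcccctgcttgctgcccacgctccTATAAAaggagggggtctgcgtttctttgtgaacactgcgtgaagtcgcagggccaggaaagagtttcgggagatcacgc

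Other motifs were searched on both strands of the 8 windows. The STAT motif TTCNNNGAA was in those of Reg3b (at -129) and Pigr (at 40), and is in 8.3% of all windows. The E-box CACGTG was in that of Pigr at -71 (7.15% of all windows), and the nuclear receptor element AGGTCA in that of Duoxa2, on the other strand at -96 (16.26%). For NF-kB only a single narrow form of the motif was searched, which was in none of the 8 windows (0.41% of all windows). Looser forms of the NF-kB motif were not searched, and their absence is not shown. The direct repeat of AGGTCA with the spacing of 4 bases that LXR prefers (0.02%) was also in none of the 8. A match is a description of letters and not a site.

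The genes spanned a wide range of levels. In TPM, which correct for transcript length and so allow genes to be compared, the mean over the 4 libraries was 1168 for Reg3b, 774.3 for Reg3g, 186 for Reg1, 68.1 for Pigr, 27.8 for Duoxa2, 20.8 for Duox2, 4.4 for Nos2, 0.528 for Nox1, 0.27 for Retnlb and 0.223 for Lcn2. The first 8 kept this order among themselves in each of the 4 libraries. Across libraries the TPM ranges of Reg3b (655 to 1884) and Reg3g (462 to 1131) overlapped, while those of Duoxa2 (25.3 to 29.3) and Duox2 (18 to 24.2) did not. Reg3b was between the 82nd and the 240th most abundant gene in a library by TPM. The 10 genes together held 0.1173% (95% Wilson interval 0.1158 to 0.1188) and 0.2403% (0.238 to 0.2427) of the gene counts in the GW3965 libraries of mouse 2 and mouse 1, against 0.1164% (0.1149 to 0.1179) and 0.1853% (0.1834 to 0.1873) in the DMSO libraries of mouse 2 and mouse 1. These intervals cover counting error alone. The share was higher in mouse 1 with either treatment, and Reg3b, Reg3g and Reg1 made up 59.2 to 86.4% of it.

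**Figure D1:**
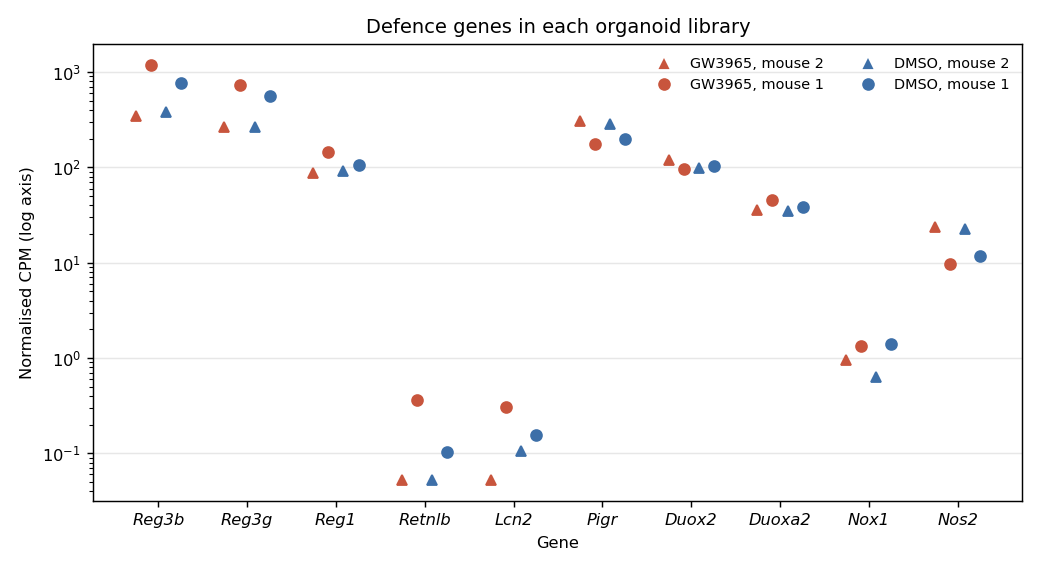
Normalised CPM (log axis) of the 10 defence genes in the 4 libraries; colour gives the treatment and shape the mouse, 1 point per library. Reg3b and Reg3g are lower and Nos2 is higher in both mouse 2 libraries than in both mouse 1 libraries, while GW3965 and DMSO points overlap for every gene.

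GW3965 left the defence genes without a detectable change at this depth and replication. Of the 8 tested members 0 were higher and 0 lower at an adjusted p under 0.05, against 8 genes higher and 0 lower among all 13602 tested (0.0588%). None of the 8 members had an unadjusted p under 0.05, against 143 of all 13602 genes (1.05%). DESeq2 and limma-voom also called 0 members. With the mouse as a block 0 members were called, against 48 of all genes (0.353%). That fit gave log2 fold changes of 0.24 ± 0.31 for Reg3b, 0.20 ± 0.30 for Reg3g and -0.10 ± 0.24 for Nos2. The GW3965 intervals given below come from the fit without the mouse, where the difference between the mice adds to the spread. The median log2 fold change of the 8 was 0.16, beside 0.00 over all genes, with 6 positive and 2 negative. The log2 difference was positive in both mice for Duoxa2, and for Reg3g it was 0.00 in mouse 2 and 0.40 in mouse 1; the other 6 had opposite signs in the mice.

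The secreted lectins were the most abundant members. Reg3b, whose product binds bacterial surfaces, had 350.2 and 1194 CPM in the GW3965 cultures of mouse 2 and mouse 1, against 385 and 777 CPM in the DMSO cultures of mouse 2 and mouse 1. The treatments overlap, and the mouse 1 libraries are the higher ones in each. Its log2 fold change of GW3965 over DMSO was 0.41 ± 0.51 (95% interval -0.72 to 1.54, adjusted p = 0.99986, edgeR), with -0.14 in mouse 2 and 0.62 in mouse 1. The fit without the GW3965 library of mouse 1 gave -0.73 and that without the GW3965 library of mouse 2 gave 1.04, and in each of these fits the mice are unequally represented.

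Reg3g, a lectin that kills Gram-positive bacteria, had 268.3 and 736 CPM with GW3965 in mouse 2 and mouse 1, against 268.2 and 557 CPM with DMSO. In mouse 2 the treatments were level, and in mouse 1 the GW3965 culture was the higher. Its log2 fold change was 0.28 ± 0.46 (-0.75 to 1.31). Reg1, a secreted lectin of the same family first known from regenerating pancreas, had 86.4 and 147 CPM with GW3965, against 91.8 and 107 CPM with DMSO, and its log2 fold change was 0.23 ± 0.26 (-0.36 to 0.82). In all 3 genes the GW3965 library of mouse 1, the one with the high mitochondrial share, held the highest value.

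These genes share little sequence at the length that matters for counting. Reg3b and Reg3g transcripts were 68.6% identical, and 5 of the 753 distinct 31-base words of Reg3b (0.66%) occur in Reg3g. Reg1 shared 0 such words with any gene. In TPM the ratio of Reg3b to Reg3g was 1.34 and 1.67 in the GW3965 libraries of mouse 2 and mouse 1, against 1.47 and 1.43 in the DMSO libraries, whereas that of Reg3b to Reg1 was 4.12 and 8.28, against 4.27 and 7.39. Reg3b and Reg3g therefore kept a narrow ratio across libraries, while the ratio to Reg1 was higher in both mouse 1 libraries. On build GRCm38 Reg3b (78370657 to 78373466, plus strand), Reg1 (78422711 to 78428667, plus strand) and Reg3g (78466269 to 78468872, minus strand) lie within 98216 bases of chromosome 6 that hold 6 protein-coding genes, the others being Reg3d, Reg3a and Reg2.

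Other members of the family differed widely in level. Reg3a, which lies between Reg3b and Reg1, had 21 and 21.9 CPM with GW3965 in mouse 2 and mouse 1, against 23.7 and 14.8 CPM with DMSO. Reg4, on another chromosome, had 110.4 and 134 CPM, against 118.5 and 118.7 CPM. Reg2 and Reg3d had 0 to 2 counts in a library. Neither Reg3a (log2 fold change 0.16 ± 0.24) nor Reg4 (0.04 ± 0.21) passed the test.

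Pigr, the receptor that carries polymeric immunoglobulin A across epithelial cells, had 305 and 176 CPM with GW3965 in mouse 2 and mouse 1, against 284 and 199 CPM with DMSO. The treatments overlap and the mouse 2 libraries are the higher ones. Its log2 fold change was -0.01 ± 0.30 (-0.69 to 0.67), with 0.10 in mouse 2 and -0.18 in mouse 1. Pigr lies on chromosome 1 (130826684 to 130852249, plus strand), and all its counts were assigned to 1 of the 3 transcripts in the files.

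Lcn2 and Retnlb were at the limit of detection. Lcn2 is a neutrophil and epithelial protein that withholds iron from bacteria by binding their siderophores. It had 1 and 5 counts with GW3965 in mouse 2 and mouse 1, against 2 and 3 counts with DMSO. All Lcn2 counts of mouse 2 were assigned to retained-intron transcripts. In mouse 1 a protein-coding transcript held 3.7 estimated counts with GW3965 and 3.0 with DMSO. Retnlb, a protein known mainly from goblet cells of the colon, had 1 and 6 counts with GW3965, against 1 and 2 counts with DMSO. The exact 95% Poisson intervals of the highest counts run from 1.62 to 11.7 for Lcn2 and from 2.2 to 13.1 for Retnlb. They overlap those of every other library, but cover counting error alone and are no test of a difference. The edgeR run without a filter on low counts held all 10 members and called 0 of them with GW3965. The goblet marker Muc2 and the other 6 goblet markers were all detected and summed to 3989 and 3334 CPM with GW3965, against 3547 and 2693 CPM with DMSO.

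The peroxide-forming pair Duox2 and Duoxa2 was expressed at a middling level in all cultures. Duox2, an oxidase of the apical membrane that releases hydrogen peroxide, had 120 and 95.8 CPM with GW3965 in mouse 2 and mouse 1, against 98.2 and 104 CPM with DMSO. Both GW3965 values lie outside the narrow range of the DMSO values, 1 above and 1 below. The log2 fold change was 0.09 ± 0.21 (-0.37 to 0.55), with 0.29 in mouse 2 and -0.13 in mouse 1. Duoxa2, the maturation factor that Duox2 needs to leave the endoplasmic reticulum, had 35.9 and 45 CPM, against 34.8 and 38.2 CPM, a log2 fold change of 0.15 ± 0.19 (-0.29 to 0.58). It was higher with GW3965 in each mouse, by 0.04 in mouse 2 and 0.24 in mouse 1 on the log2 scale. With 1 library per treatment in each mouse, these differences have no standard error of their own.

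Transcripts of the neighbouring pair were scarce, with 3 and 5 counts of Duox1 under GW3965 against 6 and 4 under DMSO, and 8 and 6 counts of Duoxa1 against 9 and 10. Duoxa2 overlaps Duoxa1 on the other strand and shares 41.8% of its 31-base words with it, and Duox2 shares 10.9% of its words with Duox1. The labels name a stranded kit but do not say whether counting used strand, and reads of the shared stretches are not assigned with certainty. The retained-intron transcript of Duox2 took 1.01% and 4.31% of the gene's counts in the GW3965 libraries of mouse 2 and mouse 1, against 2.5% and 1.3% in the DMSO libraries.

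Nox1, a superoxide-forming oxidase found mostly in the colon, was low, with 18 and 22 counts under GW3965 in mouse 2 and mouse 1, against 12 and 27 under DMSO. The counts overlap between treatments, and the log2 fold change was 0.16 ± 0.52 (-1.0 to 1.33). Its cytosolic organiser Noxo1 and the membrane subunit Cyba were higher in TPM than the oxidase itself. Noxo1 had 40 and 55.8 TPM with GW3965, against 35.1 and 44.1 TPM with DMSO, and Cyba had 93.6 and 143 TPM, against 109 and 128 TPM. The activator Noxa1 had 10.6 and 9.23 TPM, against 12.7 TPM in each DMSO library, with a log2 fold change of -0.28 ± 0.20 on the count scale (-0.72 to 0.16). Nox1 spans 134086421 to 134221956 on chromosome X (minus strand), overlaps Cstf2 and shares 11.1% of its 31-base words with it.

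Nos2, the inducible nitric oxide synthase, had 23.6 and 9.81 CPM with GW3965 in mouse 2 and mouse 1, against 22.6 and 11.9 CPM with DMSO. The values pair by mouse and overlap between treatments. Its log2 fold change was -0.04 ± 0.40 (-0.93 to 0.85), with 0.06 in mouse 2 and -0.27 in mouse 1. Nos2 had 161 to 450 counts per library and shared 0 of its 31-base words with other genes. It lies on chromosome 11 (78920787 to 78960254, plus strand).

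**Figure D2:**
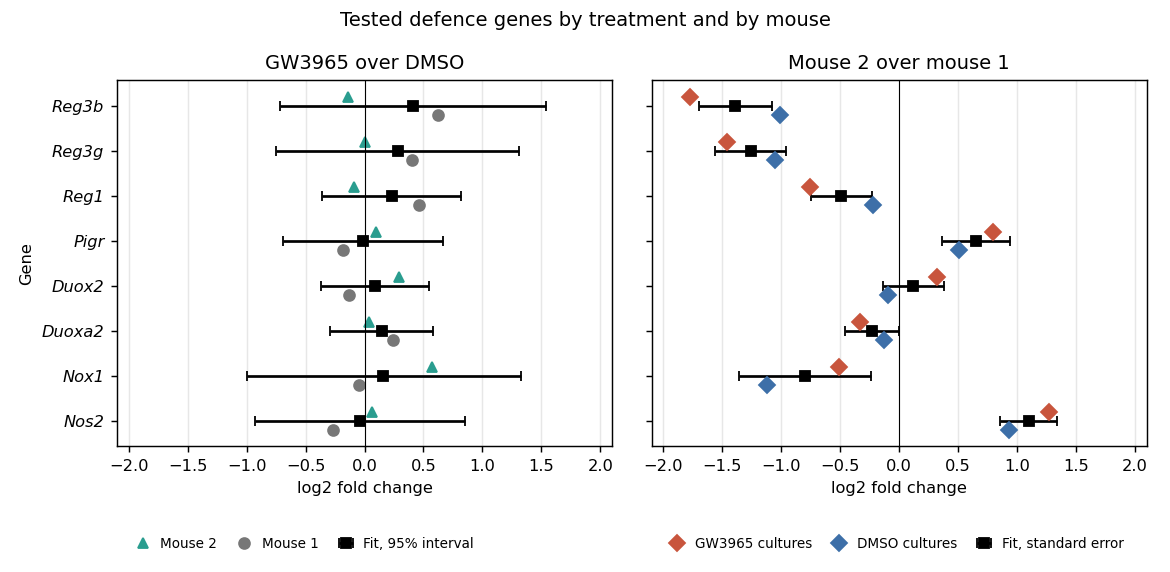
Log2 fold changes of the 8 tested defence genes, by treatment (left; squares with 95% intervals from the edgeR fit, triangles and circles for each mouse) and by mouse (right; squares with standard errors, diamonds for each treatment). Every interval on the left spans 0, and Reg3b, Reg3g and Nos2 stand farthest from 0 on the right.

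By their estimates the tested defence genes differed more by mouse than by treatment, though for Duox2 and Duoxa2 neither difference exceeded its standard error. In all 8 the log2 difference between the mice was larger in size than that between the treatments, as in 63% of all tested genes. In 7 of the 8 the difference between the mice had the same sign with GW3965 and with DMSO, Duox2 being the exception. The share of all genes with the same sign was not computed, so that this count sets no gene apart. Reg3b and Reg3g were lower in mouse 2 than in mouse 1, Nos2 was higher, and no other member passed, with a median log2 difference of -0.36 over the 8. This comparison holds the treatment as a covariate, and 93 of 13602 genes were called in it (0.684%), 46 higher (0.338%) and 47 lower (0.346%) in mouse 2. With 2 mice the values describe these 2 sets of cultures. In bulk RNA, fewer cells of a type and less RNA per cell cannot be told apart.

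Reg3b averaged 368 ± 24.6 CPM in mouse 2 and 985 ± 295 CPM in mouse 1 (SD, n = 2 libraries each), a log2 difference of -1.39 ± 0.31 (adjusted p = 0.00185, edgeR). Reg3g averaged 268.2 ± 0.0599 CPM in mouse 2 and 646 ± 126 CPM in mouse 1, a log2 difference of -1.26 ± 0.30 (adjusted p = 0.00765, edgeR). The difference was -1.01 for Reg3b and -1.05 for Reg3g among the DMSO cultures, and -1.77 and -1.46 among the GW3965 cultures, which include the library that stood apart. Nos2 averaged 23.1 ± 0.683 CPM in mouse 2 and 10.8 ± 1.46 CPM in mouse 1, a log2 difference of 1.10 ± 0.24 (adjusted p = 0.00165, edgeR), with 0.93 among the DMSO and 1.27 among the GW3965 cultures. The 2 libraries of one mouse did not overlap those of the other in 7 of the 8 tested members, Duox2 being the exception, and in 41.2% of all tested genes, so that this alone sets no gene apart.

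The remaining members fell between. Pigr averaged 295 ± 14.8 CPM in mouse 2 and 187 ± 16.8 CPM in mouse 1 without overlap, and its log2 difference of 0.65 ± 0.29 did not pass (adjusted p = 0.843, edgeR). Reg1 had -0.49 ± 0.26 (adjusted p = 0.996, edgeR), with 86.4 and 91.8 CPM in mouse 2 against 147 and 107 CPM in mouse 1. Nox1 had -0.80 ± 0.56, Duoxa2 -0.23 ± 0.23 and Duox2 0.12 ± 0.26, and none of these passed.

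The calls between mice rest on a fit with 1 residual degree of freedom and an infinite prior, in which the p does not reflect a gene's own spread. Without the treatment term, with 2 residual degrees of freedom, the adjusted p was 0.207 for Reg3b, 0.14 for Reg3g and 0.13 for Nos2 at nearly the same log2 differences, and 0 members were called, against 10 of all genes (0.0735%, 0.0368% in each direction). DESeq2 with the treatment term called Reg3b and Reg3g and gave Nos2 an adjusted p of 0.411. Leaving out a library also dropped the treatment term and left 1 mouse with a single library, assumed to vary like the pair of the other mouse, so that a pass there is no replicate check. The adjusted p was then 0.212 for Reg3b, 0.324 for Reg3g and 0.138 for Nos2 when mouse 2 lacked its GW3965 library, and 0.083, 0.288 and 0.0452 when it lacked its DMSO library (edgeR). When mouse 1 lacked its GW3965 library all 3 genes passed, with log2 differences of -1.08, -1.06 and 0.96. When it lacked its DMSO library they passed too, and so did Reg1 at -0.72 and Pigr at 0.74.

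Cell type markers also differed between the mice. Paneth markers summed to 11030 and 10820 CPM in the GW3965 and DMSO libraries of mouse 2, against 13630 and 12560 CPM in those of mouse 1, and all 7 were lower in mouse 2, of which Mmp7 (-1.18 ± 0.25, adjusted p = 0.000507, edgeR) and Pla2g2a (-0.87 ± 0.24, adjusted p = 0.048, edgeR) passed. Enterocyte markers summed to 4702 and 4523 CPM in mouse 2, against 5196 and 3705 CPM in mouse 1, with 5 of 7 positive and Lct, the lactase gene, passing at 1.75 ± 0.24 (adjusted p = 2.74e-10, edgeR). Lymphocyte markers (9 of 10 in the files, all detected) summed to 68.5 and 85.7 CPM in mouse 2, against 186 and 90.4 CPM in mouse 1, with Gzma passing at -0.93 ± 0.25 (adjusted p = 0.0366, edgeR). The Gzma difference was -1.64 among the GW3965 cultures, which include the library that stood apart, and -0.22 among the DMSO cultures. Without the treatment term the adjusted p was 0.126 for Mmp7, 0.431 for Pla2g2a, 0.652 for Gzma and 0.0356 for Lct (edgeR). Their part in the differences of Reg3b, Reg3g and Nos2 was not tested.

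Markers of myeloid cells, which also express Nos2 and Lcn2, were scarce, with all 8 detected in some library. Their sum was 8.03 and 7.58 CPM in mouse 2, against 11.5 and 8.89 CPM in mouse 1, and the macrophage gene Adgre1 had 0 to 2 counts. Itgam had 0 counts in both mouse 2 libraries and 12 in each mouse 1 library, and passed between the mice (adjusted p = 0.00285, edgeR). Without the treatment term its adjusted p was 0.335 (edgeR). The part of these cells in the Nos2 and Lcn2 values was not tested. Plasma and B cell markers, which mark the source of the antibody that Pigr carries, summed to 37.2 and 38.3 CPM in mouse 2, against 26.7 and 26.3 CPM in mouse 1. Colon markers summed to 61.4 and 59 CPM in mouse 2, against 64.5 and 63.2 CPM in mouse 1.

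**Figure D3:**
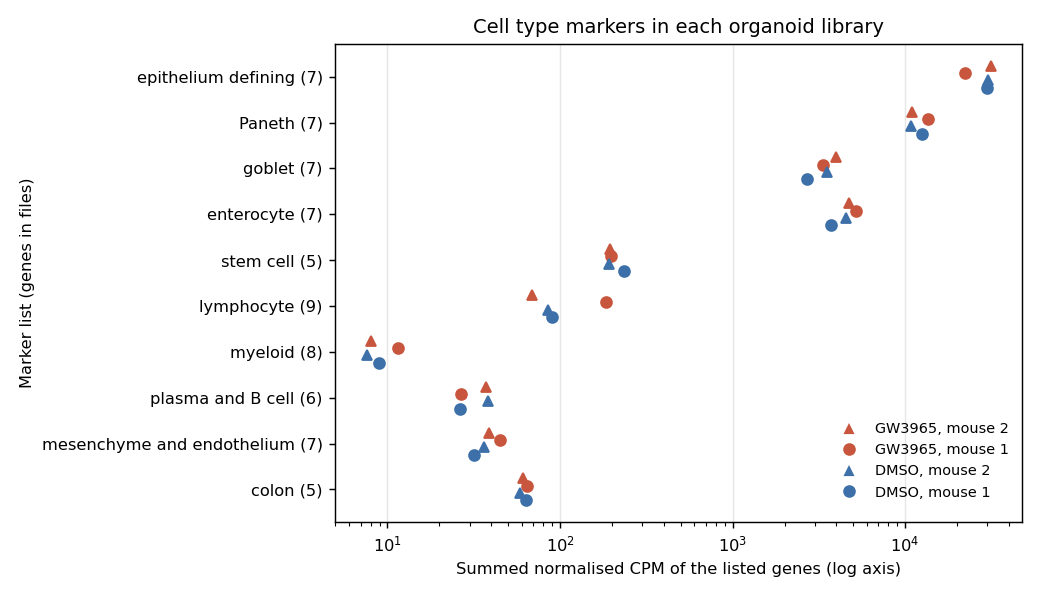
Summed normalised CPM (log axis) of the genes in each marker list, 1 point per library; the number of listed genes found in the files stands beside each list. Paneth markers are lower and plasma and B cell markers higher in both mouse 2 libraries, and the GW3965 library of mouse 1 has the highest lymphocyte sum.

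Genes that sense, relay or accompany these defences were measured in 7 lists. Of their 96 genes, 75 were tested and 0 passed with GW3965, with 37 positive and 38 negative. None had an unadjusted p under 0.05, against the 1.05% of all genes, and DESeq2, limma-voom and the fit with the mouse as a block likewise called 0. Between the mice 0 of the 75 were called, and 5 had an unadjusted p under 0.05, near the share among all genes (682 of 13602, 5.01%). Of these 5, Noxo1 had a log2 difference between the mice of -0.64 ± 0.23, Cyba -0.50 ± 0.24 and the epithelial glutathione peroxidase Gpx2 -0.61 ± 0.30. The acute phase gene Saa1, at 5 to 37 counts in a library, had -1.68 ± 0.55. The chemokine gene Ccl20, at 7 to 24 counts, went the other way with 1.33 ± 0.65.

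Upstream of the lectins, the list of receptors and signalling for interleukins 22, 17 and 6 had 14 tested genes, 6 positive and 8 negative, with a median log2 fold change of -0.04. Il22ra1, the specific chain of the interleukin-22 receptor, had 69.2 and 45.8 CPM with GW3965 in mouse 2 and mouse 1, against 61.5 and 51.1 CPM with DMSO (0.03 ± 0.23). Stat3 had 112 and 90.5 CPM, against 110.1 and 111 CPM (-0.13 ± 0.21). The NF-kB cofactor Nfkbiz had 60.1 and 89.3 CPM, against 68 and 52.6 CPM (0.31 ± 0.24), Fut2, a fucosyltransferase of the epithelium, 0.52 ± 0.41, and the NF-kB partner Bcl3 -0.21 ± 0.20. None of these genes passed. Il22ra2, the gene of a soluble receptor that binds interleukin-22, was not tested, with 2 and 1 counts under GW3965 in mouse 2 and mouse 1 and 0 under DMSO.

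In the list of oxidase partners 8 of 12 genes were tested, with a median of 0.23, and Nox4, a relative of Nox1, had -1.06 ± 0.60 at 5 to 13 counts in a library, while Noxo1 had 0.34 ± 0.30 and Cyba 0.11 ± 0.26. Nitric oxide and arginine genes had a median of -0.07 over 9 tested genes, with Asl, an enzyme that regenerates arginine, at -0.23 ± 0.20, the arginase Arg2 at 0.22 ± 0.22 and Ddah1, which breaks down inhibitors of nitric oxide synthases, at -0.15 ± 0.23. All 18 genes of peroxide and thiol defence were tested, with a median of -0.02. Among these Gsr, the glutathione reductase, had -0.25 ± 0.27, the mitochondrial dismutase Sod2 -0.17 ± 0.19, the lipid peroxide reductase Gpx4 0.24 ± 0.30 and Gpx2 0.01 ± 0.31. None of the named genes passed the test.

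Microbial sensors and NF-kB genes had a median of 0.06 over 15 tested genes. The sensor Tlr2 had -0.36 ± 0.36, the NF-kB inhibitor Tnfaip3 0.18 ± 0.19 and the adhesion gene Icam1 0.31 ± 0.37. Tlr5, the flagellin receptor, had 2 to 5 counts and was not tested. Of the list of chemokines and acute phase products 9 of 18 genes were too low to test, and the other 9 had a median of 0.07. The chemokine Cx3cl1 had -0.21 ± 0.20, the cytokine Il18 0.27 ± 0.27 and the secreted inhibitor Wfdc2 0.46 ± 0.47, and S100a8 and S100a9, the neutrophil-type metal-binding pair, had 0 to 3 counts.

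The deposited table of log2 CPM, which holds 7 of the 10 genes, gave another picture of the mice. In the authors' deposited table Reg3b was at 9.21 and 9.69 with GW3965 in mouse 2 and mouse 1, and at 9.41 and 9.27 with DMSO. Its difference of mouse 2 minus mouse 1 was thus -0.17 in the authors' deposited table, where the summed estimated counts gave -1.39. For Reg3g the authors' deposited table gave -0.18 where the counts gave -1.26, and for Nos2 it gave 0.11 where the counts gave 1.10. Over 8451 genes the difference between the mice had an SD of 0.033 in the authors' deposited table and 0.276 in the counts, with 0 and 31 genes past 1 in size. The treatment differences of Reg3b were -0.20 in mouse 2 and 0.42 in mouse 1 in the authors' deposited table, against -0.14 and 0.62 from the counts. The labels do not say how that table was scaled. No member was called from it in either comparison, and Abca1, Abcg1 and Srebf1 were not called from it either. Since that table holds almost no difference between the mice, its lack of calls there is no check on the calls from counts.

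**Figure D4:**
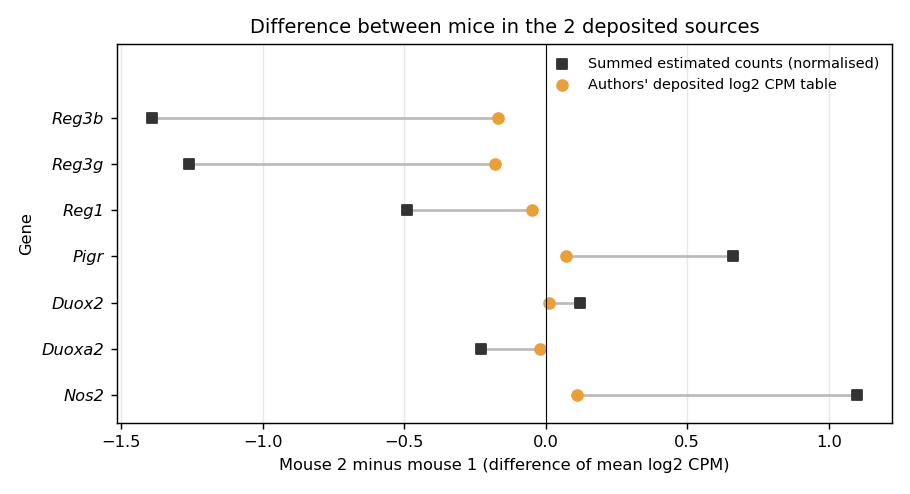
Difference of mean log2 CPM, mouse 2 minus mouse 1, for the 7 defence genes that both sources hold; squares are the summed estimated counts after scaling and circles the authors' deposited table. Every circle lies nearer to 0 than its square, with Reg3b at -0.17 against -1.39.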

How the data were processed

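Poly-A RNA libraries of organoid cultures were sequenced as single-end reads, per the labels' protocols. The submitters' processing notes name kallisto, CASAVA 1.7, FastQC and the build mm10. The files deposited by the authors give estimated counts, TPM and lengths per transcript, as their headers state. Of the deposited series tables, one has these counts as whole numbers (largest gap 0.5), and another has log2 CPM for 8524 gene symbols. The annotation release and the use of strand are not stated in the labels.

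Of 88198 transcripts, 86119 (97.6%) matched GENCODE M21, and their estimated counts were summed per gene and rounded. The unmatched ones held 0.685 to 0.854% of a library. Genes were tested with edgeR 4.0.16 (filterByExpr, TMM, quasi-likelihood test, Benjamini-Hochberg over all 13602 genes; R 4.3.3), called at an adjusted p under 0.05, with standard errors from the F statistic and 95% intervals on 9.78 degrees of freedom. The labels pair the libraries by mouse (same-mouse deviations from treatment means correlated at 0.093). limma 3.58.1 and DESeq2 1.42.0 served as alternatives, and fits were also run on simulated data. The simulation gave every gene the same dispersion (spread beyond counting error) and had no library that stood apart. It therefore cannot show how the fits behave on these libraries. Every pair of libraries differed beyond sampling noise (lowest chi-square 10.7 times its degrees of freedom). Cultures of 2 mice were compared, so p-values concern these libraries alone. The GW3965 fit had 2 residual degrees of freedom and a prior of 7.78, so its spread is largely shared across genes. With the mouse as a block, and between the mice, there was 1 residual degree of freedom and an infinite prior. The p there does not reflect a gene's own spread.

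The members, lists and tests were chosen with earlier results of these data known. Named genes are all members and up to 3 tested genes with the smallest p in each of 7 lists. To these were added 10 partners of the members and 3 LXR targets. Other genes (marker genes, Reg2, Reg3d, Il22ra2, Tlr5, Saa1, Ccl20, S100a8 and S100a9) were chosen after their values were seen. Protein sequences were not used here.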

Additional observations from a re-analysis of the deposited data

How the results depend on the processing

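No member was called with GW3965 under any alternative run. All genes called with GW3965 numbered 8, against 48 with the mouse as a replicate block, 14 without a filter on low counts, 19 with DESeq2, 20 with limma-voom, 0 from the authors' deposited log2 table and 38 to 84 when 1 library was left out. Between the mice 93 genes and 3 members were called, against 10 and 0 without the treatment term, 28 genes with DESeq2 (and 2 members), 0 and 0 from the authors' deposited log2 table, and 50 to 2811 genes and 0 to 5 members when 1 library was left out (140 genes without the GW3965 library of mouse 1, 50 without that of mouse 2, 2811 without the DMSO culture of mouse 1 and 78 without that of mouse 2). Those last fits also drop the treatment term, chosen after seeing the data, because 3 libraries and 3 coefficients leave no residual degree of freedom. Leaving out the mitochondrial genes, also chosen after seeing the data, turned Pigr from -0.01 to 0.00, and the authors' deposited log2 table turned Pigr to 0.03 and Cyba to -0.01. Gpx2 (0.01) turned to -0.03 with the replicate block and from the deposited table, to -0.02 with limma-voom, and to 0.00 without a filter or with DESeq2.

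The directions of GW3965 differences that leaving out 1 library turned are given by their lowest and highest log2 fold change: Reg3b -0.73 to 1.04, Reg3g -0.62 to 0.91, Reg1 -0.20 to 0.56, Duox2 -0.08 to 0.24, Duoxa2 -0.02 to 0.30, Nos2 -0.81 to 0.49, Pigr -0.46 to 0.34, Nox1 -0.29 to 0.83, Reg3a -0.14 to 0.53, Reg4 -0.10 to 0.18, Nfkbiz -0.01 to 0.57, Noxo1 -0.26 to 0.77, Arg2 0.00 to 0.49, Ddah1 -0.50 to 0.12, Gsr -0.62 to 0.05, Gpx4 -0.25 to 0.61, Icam1 -0.19 to 0.69, Wfdc2 -0.17 to 0.91, Cyba -0.38 to 0.48, Il22ra1 -0.30 to 0.30, Stat3 -0.29 to 0.02, Gpx2 -0.44 to 0.36. Between the mice, Duox2 ran from -0.03 to 0.26. The mice are unequally represented in each of these fits, and the cause was not tested. Without the mitochondrial genes in the total, the members' share of a library was 0.1285% and 0.2795% with GW3965 in mouse 2 and mouse 1, against 0.1285% and 0.2006% with DMSO. Retnlb, Lcn2, Duox1 and Duoxa1 are limited by depth, at 10 counts or fewer in every library.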
